A study of Mus musculus with 39 samples.

Results

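Complement C3, the C4 pair and the genes of the terminal pathway were followed in mouse liver: C3, C4a, C4b, Hc, C6, C8a, C8b, C8g and C9. They were chosen by name, with earlier results of these data known, and all 9 were found among the 54735 genes of the liver table. The livers came from C57BL/6 mice at 4 weeks of age. They were knockout for SXR/PXR, the steroid and xenobiotic receptor encoded by Nr1i2, or wild type. Perinatal exposure was to PCB-153, a polychlorinated biphenyl that persists in tissue, with a daily dose near 54 µg per kg, or to DMSO, its vehicle. The 4 groups were knockout PCB-153, knockout vehicle, wild-type PCB-153 and wild-type vehicle livers, with 5 libraries each. The labels give no sex, no litter and no detail of the knockout allele, and do not say whether each library is a separate animal, so p-values measure the spread between these samples only.

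Complement is a set of plasma proteins, made mostly by hepatocytes, that mark and lyse foreign cells. The classical and lectin pathways cleave C4 and C2, and these, like the alternative pathway, then cleave C3, the most abundant component. C3b splits C5, encoded by Hc in the mouse, and C5b then gathers C6, C7, C8 and several copies of C9 into the membrane attack complex, which forms a pore. C8 is made of 3 chains from separate genes: C8a and C8b encode chains of the pore-forming family of C6 and C9, whereas C8g encodes a small lipocalin that is bound to the alpha chain. In mice, the activity of the terminal pathway is known to be higher in males than in females.

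In knockout livers C6, C8a, C8b and C9 fell together, whereas C3, C4a, C4b, Hc and C8g did not pass the test in any comparison. Averaged over both exposures, knockout against wild type, C6 fell by 56.9%, C8b fell by 42.8%, C9 fell by 42.2% and C8a fell by 38.2%. These were 4 of 9 genes called lower, against 2.45% of the 16155 genes tested that were called lower in the same comparison. Because the 9 genes were chosen with earlier results of these data known, such shares, here and below, are descriptions and not independent support. Called means a Benjamini-Hochberg adjusted p under 0.05 in limma, fitted over all 16155 genes, on log2 of the normalised read count plus 1. DESeq2 and edgeR also called 4 of the 9 each, with 646 and 369 of all genes called lower, against 395 in limma. For no gene of the 9 did all 10 knockout libraries lie below all 10 wild-type libraries, as they did for 0.13% of all genes. For C8a and C8b, 9 of 10 knockout libraries lay below the lowest wild-type library, for C6 7 of 10 and for C9 6 of 10. For C4a and C4b, which were not called, it was 3 of 10 each, and for C3, Hc and C8g 0. These counts were not made over all genes. In bulk liver, fewer cells of a type and less RNA per cell cannot be told apart.

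The 4 genes that fell lie on chromosomes 4 and 15 (GRCm38, GENCODE M21). C8b (chr4:104766317-104804548, plus strand) and C8a (chr4:104815679-104876398, minus strand) are neighbours that point toward each other, with 11.1 kb between them. C6 (chr15:4727175-4814967) and C9 (chr15:6445327-6498751) are both on the plus strand of chromosome 15. Their promoters are shown because these genes moved together. Each runs from 250 bases before to 50 bases after the start of the gene (RefSeq, GRCm38.p6), and capitals mark a match to any of 3 searched motifs.
C8a: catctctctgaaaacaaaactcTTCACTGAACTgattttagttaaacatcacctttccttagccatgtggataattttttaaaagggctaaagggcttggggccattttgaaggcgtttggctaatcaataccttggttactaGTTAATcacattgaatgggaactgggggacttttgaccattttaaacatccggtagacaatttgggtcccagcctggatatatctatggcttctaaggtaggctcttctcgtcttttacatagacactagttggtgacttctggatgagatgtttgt
C8b: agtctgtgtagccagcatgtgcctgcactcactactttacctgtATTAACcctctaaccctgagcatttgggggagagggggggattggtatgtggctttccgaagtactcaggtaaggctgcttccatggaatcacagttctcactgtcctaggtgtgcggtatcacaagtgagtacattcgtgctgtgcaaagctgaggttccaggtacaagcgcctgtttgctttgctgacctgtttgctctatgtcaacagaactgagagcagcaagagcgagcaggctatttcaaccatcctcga
C6: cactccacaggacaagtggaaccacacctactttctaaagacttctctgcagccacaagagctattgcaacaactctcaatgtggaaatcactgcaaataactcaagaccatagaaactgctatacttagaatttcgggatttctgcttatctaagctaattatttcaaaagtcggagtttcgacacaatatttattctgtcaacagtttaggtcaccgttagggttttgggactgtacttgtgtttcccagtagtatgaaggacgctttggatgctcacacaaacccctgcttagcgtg
C9: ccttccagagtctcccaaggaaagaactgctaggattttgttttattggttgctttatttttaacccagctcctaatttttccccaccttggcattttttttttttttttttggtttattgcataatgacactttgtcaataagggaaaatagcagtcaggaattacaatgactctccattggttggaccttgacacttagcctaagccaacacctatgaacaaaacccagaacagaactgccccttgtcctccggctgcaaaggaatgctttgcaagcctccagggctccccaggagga
Promoters were at hand for 7 of the 9 genes, C3, Hc, C6, C8a, C8b, C8g and C9. The motifs, searched on both strands, were TTCNNNGAA, the inverted repeat bound by STAT5, GTTAAT, part of the site of the liver factor HNF1, and AGTTCA, the repeat unit of many nuclear receptor sites. C8a held TTCNNNGAA at position -228, overlapped by AGTTCA at -223, and GTTAAT at -107, counted from the start of the gene. GTTAAT was also found at -206 in C8b and at -74 in Hc. No letters of these motifs were found in the other promoters, C6 and C9 included. Over all 32851 mouse promoters of this length, 8.3% held TTCNNNGAA, 7.1% held GTTAAT and 14% held AGTTCA. A match is a run of letters and not a measured binding site.

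C3 (chr17:57203970-57228136, minus strand) stood above the other genes in liver. Its median over the 20 libraries was 1187 RPKM, the reads per kb of annotated exon and per M reads of the library. C4b (156 at the median, 125 to 195) and C8g (154, 99.9 to 190) came next, and their ranges overlapped. C8a (99.4, 46.3 to 135), C8b (95.7, 42.4 to 129) and Hc (70.8, 60.5 to 90.0) followed, also with overlapping ranges. C9 had 48.3 RPKM at the median (19.7 to 104) and C4a had 19.9 (16.5 to 26.8), which overlap at their edges. C6 was the lowest at 3.14 (1.06 to 9.92). C7, the terminal component that is not among the 9, had 0.093 and at most 9.23 normalised reads, and did not enter the test.

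**Figure D1:**
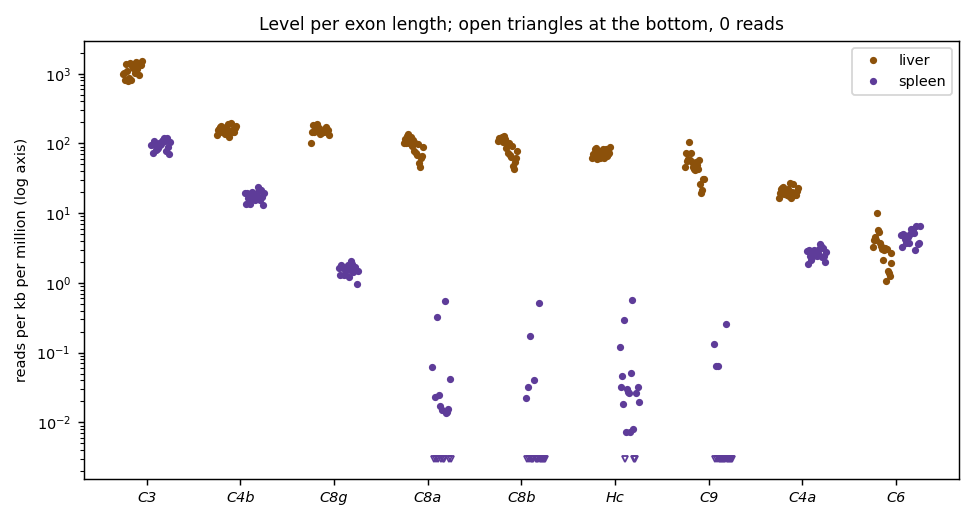
Reads per kb of annotated exon and per M reads of the library (log axis) for the 9 genes in 20 liver and 19 spleen libraries, 1 point per library. C3 is highest in both tissues, C6 reaches like levels in both, and Hc, C8a, C8b and C9 are near or at 0 in spleen.

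Spleen libraries give a second view of where these genes are counted. The tables of the 2 tissues were normalised separately, so the levels are set side by side with no test. C3 had a median of 95.7 RPKM over 19 spleen libraries, C4b 17.9, C6 4.85, C4a 2.55 and C8g 1.62. C6 was thus the only gene of the 9 whose spleen median was above its liver median. Hc, C8a, C8b and C9, which encode proteins made by hepatocytes, were close to absent. C8b had 0 reads in 14 of 19 spleen libraries, C9 in 15, C8a in 8 and Hc in 3. The 2 spleen libraries with the most Hc (63.7 and 36.8 normalised reads) also had the most C8a (36.0 and 23.4) and the most albumin RNA (8921 and 2846). The part of liver RNA in these spleen values was not tested. Genotypes were not compared in spleen, where Nr1i2 had 42.9 to 62.8 normalised reads in libraries labelled knockout and 0 to 2.27 in those labelled wild type, against the direction of the labels.

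Nr1i2 (chr16:38248323-38294824, minus strand) was checked first in liver. It had 952, 1155, 891, 698 and 612 normalised reads in knockout PCB-153 livers, and 1077, 1019, 1642, 1939 and 1297 in wild-type PCB-153 livers. Vehicle livers had 768, 449, 969, 759 and 626 in knockout and 1706, 1546, 1328, 1781 and 1499 in wild type. The groups did not overlap with vehicle and overlapped with PCB-153. In limma the log2 fold change of knockout against wild type was -1.18 ± 0.20 with vehicle (SE, adjusted p = 0.00415). With PCB-153 it was -0.69 ± 0.20 and was not called (adjusted p = 0.111). Averaged over both exposures Nr1i2 fell by 0.93 ± 0.14 on the log2 scale (SE, adjusted p = 0.000317) and was still counted in every knockout liver. Which exons the remaining reads cover was not analysed here.

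C8b encodes the beta chain of C8, which joins C8 to the growing complex. Knockout PCB-153 livers had 2258, 1912, 2631, 2779 and 3597 normalised reads of C8b, against 5032, 6134, 5383, 4393 and 4583 in wild-type PCB-153 livers. Knockout vehicle livers had 3305, 4791, 3350.3, 3047 and 4252, against 5439.7, 5969, 5379, 5658 and 6323 in wild-type vehicle livers. Every knockout library lay below every wild-type library of the same exposure. The log2 fold change was -0.98 ± 0.15 with PCB-153 (SE, n = 5 each, adjusted p = 0.000693) and -0.64 ± 0.15 with vehicle (adjusted p = 0.0482). The vehicle difference was near the threshold: DESeq2 called it and edgeR did not (adjusted p = 0.0719). Over the alternatives that keep every library, adjusted p ranged from 0.00814 to 0.0761. Leaving out any 1 of the 10 libraries, except knockout vehicle replicate 2 or 5, ended the call, with adjusted p of 0.0754 to 0.194. Averaged over both exposures C8b fell by 0.81 ± 0.10 (adjusted p = 5.27e-05).

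C8a encodes the alpha chain, which enters the membrane. Its normalised reads were 3471, 2985, 4284, 4261 and 5797 in knockout PCB-153 livers, against 6861, 7849, 8369.8, 6643 and 7061 in wild-type PCB-153 livers. With vehicle they were 5004, 6902, 5034, 4731 and 6575 in knockout and 7194, 8170.0, 6941, 8672 and 9819.5 in wild type. Knockout and wild-type libraries did not overlap within either exposure. The log2 fold change was -0.85 ± 0.15 with PCB-153 (adjusted p = 0.00316) and -0.54 ± 0.15 with vehicle, which limma did not call (adjusted p = 0.127) and DESeq2 did (0.0483). Adjusted p for vehicle ranged from 0.0483 to 0.215 over the alternatives that keep every library and from 0.0747 to 0.345 when 1 library was left out. Over both exposures it was -0.70 ± 0.11 (adjusted p = 0.000359).

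C8a and C8b kept close to the same ratio in all groups, while both were lower relative to C8g in knockout livers. Per kb of exon, C8a over C8b was 1.10 ± 0.03 in knockout PCB-153, 1.06 ± 0.03 in knockout vehicle, 1.02 ± 0.09 in wild-type PCB-153 and 0.989 ± 0.085 in wild-type vehicle livers (SD, n = 5 each). C8a over C8g was 0.415 ± 0.152, 0.559 ± 0.094, 0.671 ± 0.124 and 0.816 ± 0.172 in the same order of groups. C8b over C8g was 0.376 ± 0.132, 0.530 ± 0.100, 0.659 ± 0.094 and 0.825 ± 0.172. Both ratios to C8g were lowest in knockout PCB-153 livers and highest in wild-type vehicle livers. These ratios are a description and were not tested.

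**Figure D2:**
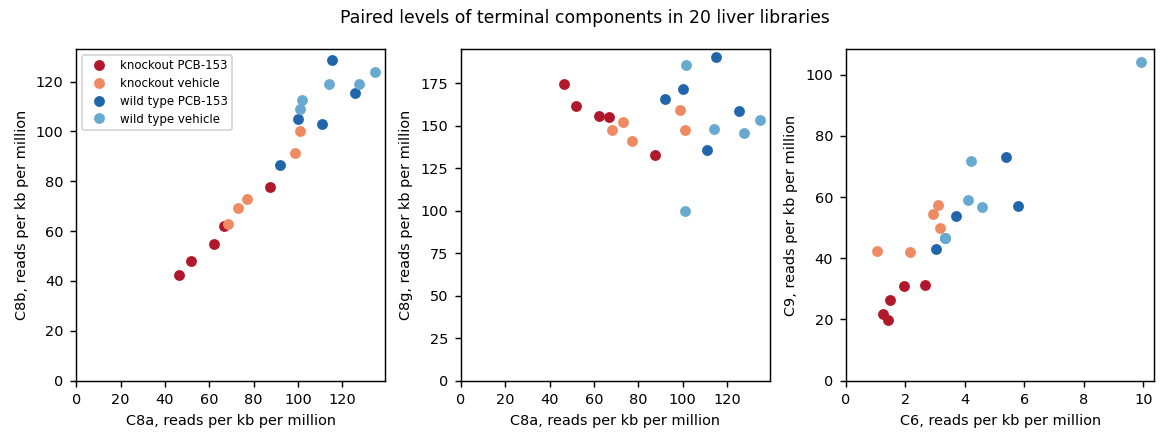
RPKM of C8b against C8a, C8g against C8a and C9 against C6, 1 point per liver library. C8a and C8b lie along a line with knockout PCB-153 livers at its low end, C8g, at 99.9 to 190 RPKM, shows no order by genotype, and wild-type vehicle replicate 5 is highest in both C6 and C9.

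C8g (chr2:25498651-25501719, minus strand) showed no such difference. Its normalised reads were 3600.5 to 4623 in knockout PCB-153, 3746 to 4364 in knockout vehicle, 3539 to 5325 in wild-type PCB-153 and 2928 to 5198 in wild-type vehicle livers, and all groups overlapped. Averaged over both exposures, the log2 fold change of knockout against wild type was -0.06 with a 95% interval of -0.25 to 0.13 (adjusted p = 0.779).

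C9 encodes the chain that polymerises into the pore. It had 1237, 894, 1044, 1410.2 and 1443 normalised reads in knockout PCB-153 livers, against 2753, 3496, 2521, 2375 and 1918 in wild-type PCB-153 livers. Vehicle livers had 1917, 2619, 2418, 2059 and 2688 in knockout and 2333, 3612, 2725, 2828 and 5328 in wild type. The knockout PCB-153 libraries lay below all 15 others, whereas knockout and wild-type vehicle livers overlapped. The log2 fold change was -1.11 ± 0.19 with PCB-153 (adjusted p = 0.00255) and -0.47 ± 0.19 with vehicle (adjusted p = 0.308). Without wild-type vehicle replicate 5, which had the 5328, the vehicle difference was -0.29 (adjusted p = 0.431). Over both exposures C9 fell by 0.79 ± 0.14 (adjusted p = 0.00119).

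C6, which binds C5b first, was the lowest of the genes and had the highest coefficient of variation in each group (30.2 to 53.8%). It had 97.1, 88.9, 84.3, 166 and 126 normalised reads in knockout PCB-153 livers, against 386, 359, 242, 236 and 188 in wild-type PCB-153 livers. Knockout vehicle livers had 136, 196, 214, 71.7 and 203, against 231, 293, 305, 274 and 707 in wild-type vehicle livers. Neither pair of groups overlapped. The log2 fold change was -1.32 ± 0.31 with PCB-153 (adjusted p = 0.029) and -1.11 ± 0.31 with vehicle (adjusted p = 0.117, called by DESeq2 at 0.0198, ranging from 0.0198 to 0.211 over the alternatives that keep every library and from 0.0904 to 0.341 when 1 was left out). Wild-type vehicle replicate 5 stood apart at 707, and without it the vehicle difference was -0.84 (adjusted p = 0.175). The call with PCB-153 was lost in fits without wild-type PCB-153 replicate 1, 2 or 3 or knockout PCB-153 replicate 1, 2 or 3 (adjusted p of 0.106, 0.104, 0.0516, 0.0716, 0.0813 and 0.0807). Over both exposures C6 fell by 1.21 ± 0.22 (adjusted p = 0.0016), and this call was kept in all 20 fits that left out 1 library, with adjusted p of up to 0.00449.

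**Figure D3:**
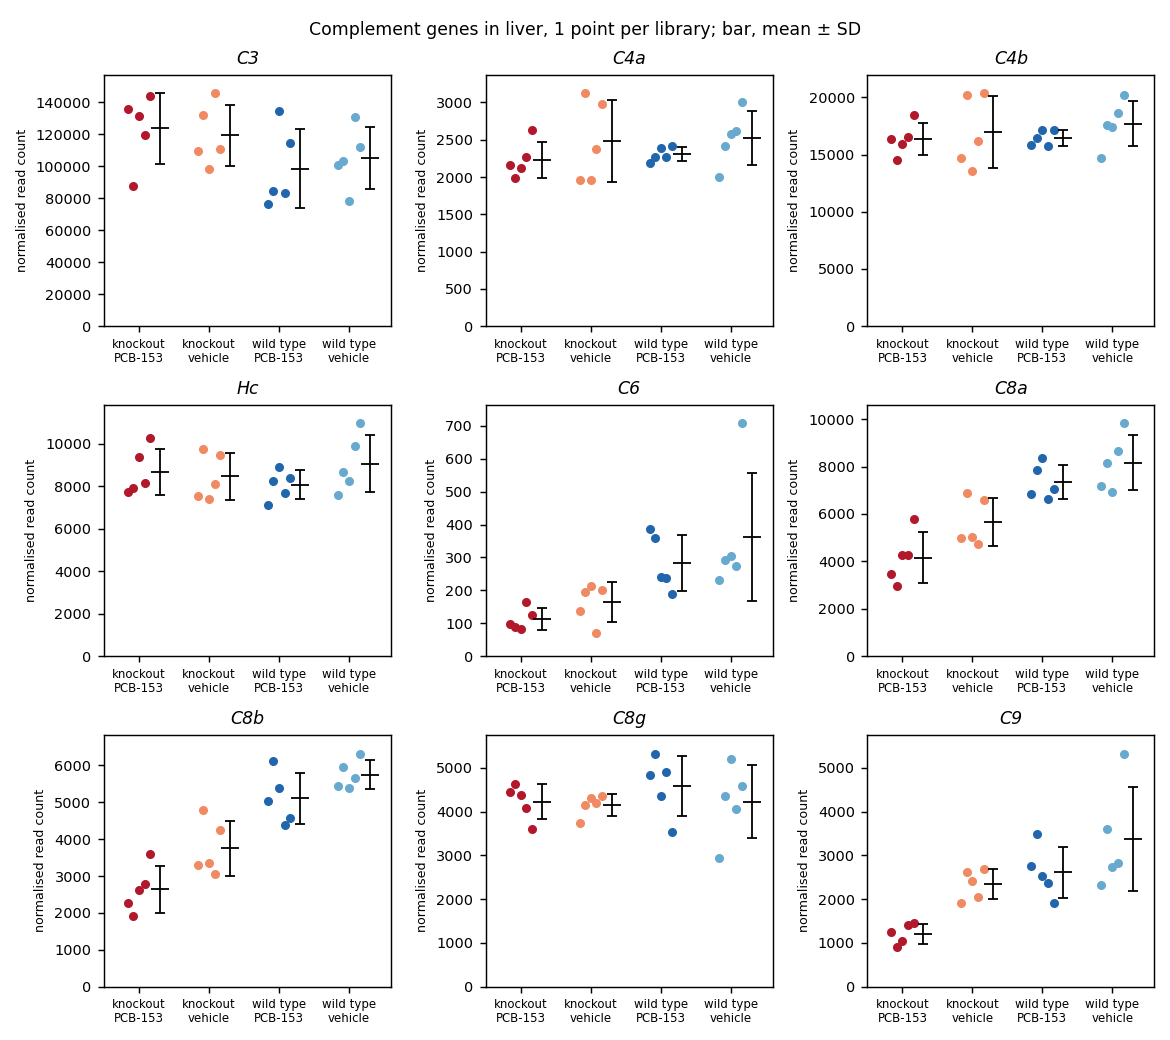
Normalised read count of each gene in every liver library, 5 points per group, with the mean and SD beside them; each axis starts at 0. C6, C8a, C8b and C9 have lower means in the knockout groups, with the lowest mean in knockout PCB-153 livers. C9 overlaps between genotypes with vehicle, and C6, C8a and C8b overlap between knockout PCB-153 and knockout vehicle livers. The other 5 genes overlap between all groups.

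C3 is cleaved by all pathways. Knockout PCB-153 livers had 87507 to 144060.0 normalised reads (mean 123713 ± 22069, SD, n = 5) and wild-type PCB-153 livers 76663 to 134366 (98609 ± 24727). Knockout vehicle livers had 98359.7 to 145759 (119388 ± 19162) and wild-type vehicle livers 78018 to 131078 (105096 ± 19251). The groups overlapped at both exposures. Averaged over them, the log2 fold change was 0.27 with a 95% interval of -0.0025 to 0.53 (adjusted p = 0.263).

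C4b (chr17:34728380-34743882, minus strand) encodes the C4 of the classical and lectin pathways, and C4a (chr17:34809092-34823464, minus strand) its close copy, which GENCODE M21 lists as a processed transcript. The 2 are near enough that reads may be shared: 30.6% of the 50-base words of C4a transcripts also occur in C4b, and 34.6% of those of C4b in C4a. The aligned transcripts are 95.9% identical over 5378 columns. An 80-base window of transcripts C4a-207 (positions 2735 to 2814) and C4b-201 (2741 to 2820) is shown because it holds 13 differences, marked in capitals, by which reads can be told apart.
C4a: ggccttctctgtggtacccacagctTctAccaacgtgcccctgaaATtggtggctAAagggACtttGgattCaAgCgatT
C4b: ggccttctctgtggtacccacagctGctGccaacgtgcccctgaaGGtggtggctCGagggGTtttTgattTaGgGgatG
How shared reads were assigned is not stated by the labels, so the separate levels are uncertain. C4b had 14502 to 18459.7 normalised reads in knockout PCB-153, 13525 to 20362 in knockout vehicle, 15739.9 to 17119 in wild-type PCB-153 and 14721 to 20183 in wild-type vehicle livers. C4a had 1981 to 2625, 1962 to 3125, 2184 to 2416 and 2007 to 3001 in the same groups. Genotypes overlapped for both genes. Over both exposures the log2 fold change was -0.04 for C4b (95% interval -0.21 to 0.13) and -0.05 for C4a (-0.24 to 0.14).

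Hc (chr2:34983331-35061438, minus strand) encodes C5, the entry to the terminal pathway. Knockout PCB-153 livers had 7718 to 10258 normalised reads, knockout vehicle livers 7382 to 9761, wild-type PCB-153 livers 7139.5 to 8892 and wild-type vehicle livers 7574 to 10961. All groups overlapped, and the log2 fold change over both exposures was 0.0020 with a 95% interval of -0.17 to 0.17 (adjusted p = 0.995). C9 over Hc, per kb of exon, was 0.342 ± 0.067 in knockout PCB-153, 0.680 ± 0.075 in knockout vehicle, 0.799 ± 0.194 in wild-type PCB-153 and 0.896 ± 0.205 in wild-type vehicle livers.

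Taken by exposure, knockout against wild type called 4 of 9 genes lower with PCB-153, where 0.854% of all genes tested were called lower, and 1 of 9 with vehicle, where 0.272% were. Ranges did not overlap, with the knockout lower, for 4 of 9 genes with PCB-153 (1.38% of all genes) and for 3 of 9 with vehicle (1.61%). The median log2 fold change over the 9 genes was -0.11 with PCB-153 and -0.10 with vehicle, against 0.0021 and 0.0071 over all genes. DESeq2 called 4 with PCB-153 and 3 with vehicle, and edgeR 4 and 0. Over all genes, DESeq2 called 208 lower with PCB-153 and 126 with vehicle, edgeR 128 and 36, and limma 138 and 44. The authors' deposited table for PCB-153 gives log2 fold changes of -1.33 for C6, -1.12 for C9, -0.95 for C8b and -0.82 for C8a, with adjusted p of 0.00195, 1.07e-05, 3.53e-07 and 4.72e-05. For vehicle, the authors' deposited table lists 266 genes, among them C6 (-1.14, adjusted p = 0.0215) and C8b (-0.62, adjusted p = 0.00936).

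**Figure D4:**
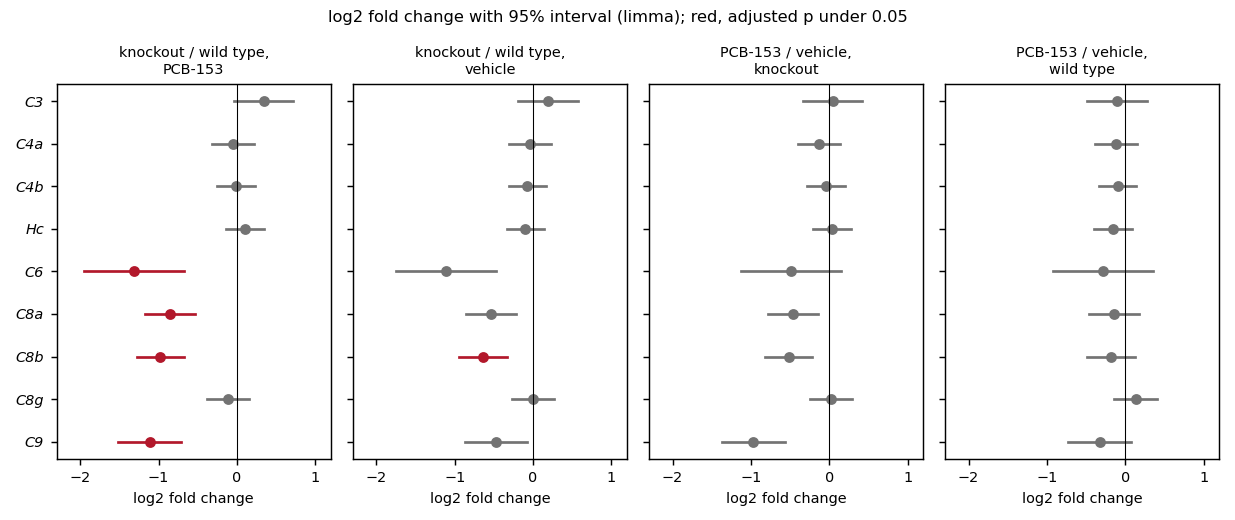
Fitted log2 fold change of each gene with its 95% interval in 4 comparisons; red marks an adjusted p under 0.05. With PCB-153, C6, C8a, C8b and C9 lie between -0.85 and -1.32 and C3, C4a, C4b, Hc and C8g lie between -0.11 and 0.34; in wild type no gene is called between exposures.

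PCB-153 against vehicle was asked within each genotype. In wild-type livers limma called none of the 9 genes, nor any of all genes tested (0%). None of the 9 was called by edgeR or DESeq2 either. Unadjusted p in limma was under 0.05 for 0 of 9, against 6.69% of all genes. For none of the 9 did the groups separate, as they did for 0.508% of all genes in either direction. C9 was the farthest from 0, with a log2 fold change of -0.33 and a 95% interval of -0.73 to 0.07, and of -0.15 without wild-type vehicle replicate 5. In knockout livers limma again called 0 of 9 and 0% of all genes, while 3 of 9 had an unadjusted p under 0.05, against 9.85% of all genes. These were C9 at -0.97 ± 0.19 (unadjusted p = 5.68e-05, adjusted p = 0.0959), C8b at -0.52 ± 0.15 (adjusted p = 0.364) and C8a at -0.46 ± 0.15 (adjusted p = 0.396). For C9 all 5 knockout PCB-153 livers lay below all 5 knockout vehicle livers, a separation found in 1.25% of all genes. DESeq2 called C9 here (-0.96, adjusted p = 0.00188), edgeR called none, and adjusted p ranged from 0.00188 to 0.151 over the alternatives that keep every library and from 0.0824 to 0.359 when 1 was left out. The authors' deposited table gives -0.96 with an adjusted p of 0.0016. Averaged over both genotypes, limma called 0 of 9 and 0% of all genes, with 3 of 9 under an unadjusted p of 0.05, against 16.5% of all genes. C9 had a log2 fold change of -0.65 ± 0.14 (adjusted p = 0.15). DESeq2 called it (adjusted p = 0.00557), and so did limma without wild-type vehicle replicate 3 (adjusted p = 0.0459).

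Whether PCB-153 differed in its effect between genotypes was tested by the interaction, knockout difference minus wild-type difference. No gene of all those tested was called (0%), and adjusted p was 1.00 for the 9 genes. C9 had -0.64 with a 95% interval of -1.21 to -0.07 and an unadjusted p of 0.0293, the only unadjusted p under 0.05 among the 9, against 2.69% of all genes. DESeq2 and edgeR called none of the 9. The comparisons with knockout PCB-153 livers share those libraries and are not independent.

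Within groups, levels of some of these genes moved together from library to library. After subtracting each group's mean of log2(value + 1), C4a and C4b correlated with Pearson's r of 0.978 and Spearman's rho of 0.938 over the 20 livers. C8a and C8b gave 0.932 and 0.893, C6 and C9 gave 0.810 and 0.774, and C8a and C8g gave -0.127 and -0.167. Hc, which was not called, gave Pearson's r of 0.853 with C8a, 0.851 with C4b and 0.845 with C4a. The libraries share depth and handling, and C4a and C4b share reads, so these values describe the samples and carry no test. Outside the 9 genes, 10317 genes were compared in the same way by Pearson's r. Among these, Adipor2, a receptor for adiponectin, was closest to both C8a (0.910) and C8b (0.902), followed by Rassf8 for C8a (0.907) and Sec14l2 for C8b (0.889). Srd5a1, a steroid reductase, was closest to C9 (0.904), followed by Paqr3 (0.878). For C6 they were Slc35a2 (0.806) and Pik3r1 (0.765), for C8g the mitochondrial Ndufs6 (0.937) and Cox6c (0.934), and for Hc the bile salt pump Abcb11 (0.901) and Psmd2 (0.893). Among the same outside genes, C4a and C4b were closest to the carboxylesterase Ces1d (0.943 and 0.966) and then Vps26b (0.891 and 0.896), and C3 to Rtcb (0.930) and Smc1a (0.922).

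The rest of the complement system was counted in the same fits. Of 45 other genes listed, 39 were tested, and in knockout against wild type within each exposure none was called higher or lower. Averaged over exposures, 1 was called higher and 2 lower, against 2.12% and 2.45% of all genes. C2, the protease partner of C4, averaged 2249 ± 301 normalised reads in knockout PCB-153 and 2253 ± 154 in knockout vehicle livers, against 1714 ± 225 and 1681 ± 372 in wild-type PCB-153 and wild-type vehicle livers (SD, n = 5 each). It rose by 0.42 ± 0.10 on the log2 scale (adjusted p = 0.0185). Mbl1, a mannose-binding lectin, fell by 0.44 ± 0.11 (adjusted p = 0.0221) and C1ra, a protease of C1, by 0.32 ± 0.09 (adjusted p = 0.0455). Of the 17 tested initiation genes the median log2 fold change was -0.19. None of 16 regulators (median 0.0097) and none of 6 receptors (median -0.07) was called, against a median of 0.0059 over all genes. Susd4, a membrane protein known to restrain complement that is not on the regulator list and was picked out after its values were seen, fell by 1.64 ± 0.19 (adjusted p = 1.86e-05). It is also one of the male-biased liver genes counted in the next paragraph, so it is not a separate observation.

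**Figure D5:**
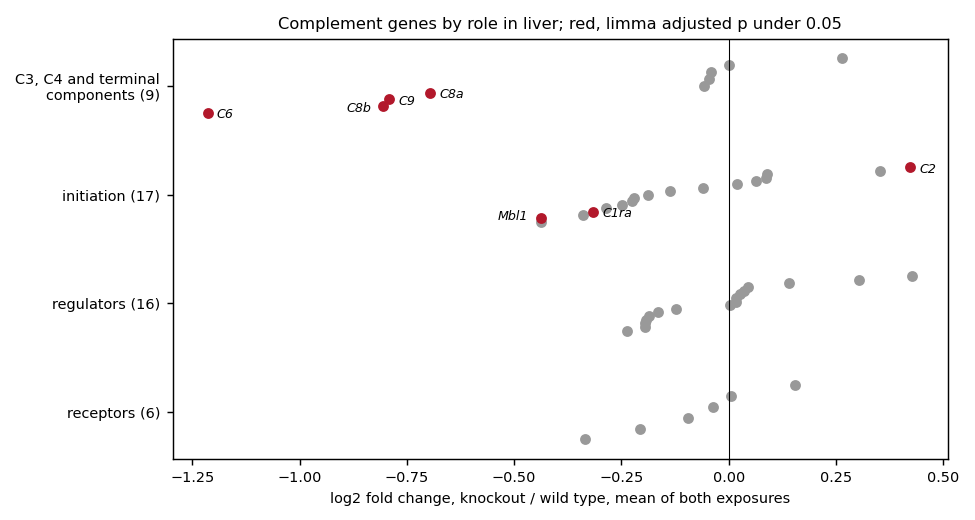
Log2 fold change of knockout against wild type, averaged over both exposures, for each tested complement gene, in rows by role; red marks an adjusted p under 0.05. C6, C8b, C9 and C8a lie left of all genes drawn in the other 3 rows, of which C2, Mbl1 and C1ra were called.

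Genes of male-biased liver expression moved with the same comparison. Of 17 tested, 16 were called lower in knockout livers over both exposures (2.45% of all genes), with a median log2 fold change of -2.0. Within exposures, 14 were called lower with PCB-153 (0.854% of all genes) and 9 with vehicle (0.272%). Their summed normalised reads were 14469.5 to 22618 in knockout PCB-153, 16836 to 35094 in knockout vehicle, 32451 to 82987 in wild-type PCB-153 and 46315 to 82155 in wild-type vehicle livers. For PCB-153 against vehicle, none of the 17 male-biased genes was called within either genotype. Of these, 16 had a lower mean with PCB-153 in knockout (median -0.76) and 15 in wild-type livers (median -0.33). Of 20 female-biased genes, 14 were called higher in knockout livers over both exposures (median 1.36), against 2.12% of all genes. The part of this in the fall of C6, C8a, C8b and C9 was not tested.

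None of 9 tested markers of hepatocytes, which make these proteins, was called. Their summed normalised reads were 1908890 to 2552620 in knockout PCB-153, 2159250 to 2605140 in knockout vehicle, 2076580 to 2571830 in wild-type PCB-153 and 2155580 to 2378290 in wild-type vehicle livers. None of 8 Kupffer cell, 4 lymphocyte, 7 stellate cell and 5 cholangiocyte markers tested was called, nor the 1 neutrophil marker tested. In knockout against wild type over both exposures, 2.45% of all genes were called lower and 2.12% higher, so lists this short could not show an absence of change. Of the 8 Kupffer cell markers, 6 had a lower and 2 a higher mean in that comparison (median log2 fold change -0.19). Of 20 acute phase genes, Lcn2 was higher by 1.32 ± 0.33 in knockout than in wild-type livers, both with PCB-153 (adjusted p = 0.0446). In knockout against wild type over both exposures, Serpina3k fell by 0.94 ± 0.17 (adjusted p = 0.0016) and Saa4 by 0.50 ± 0.10 (adjusted p = 0.0053). The erythroid gene Alas2 fell by 1.11 ± 0.16 (adjusted p = 0.000217) and the endothelial gene Pecam1 rose by 0.52 ± 0.15 (adjusted p = 0.0481), each the only one called of 5 and 6 tested. The other 4 erythroid genes had a higher mean in knockout livers, and the median over the 5 was 0.29. The part of any of these in the result was not tested. Depth overlapped between groups, at 18.25 to 28.65 M reads in knockout PCB-153, 17.79 to 21.88 M in knockout vehicle, 16.75 to 19.36 M in wild-type PCB-153 and 15.23 to 20.14 M in wild-type vehicle livers.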

How the data were processed

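Frozen tissue was extracted with Trizol and sequenced from Illumina TruSeq libraries, per the labels. The tools named in the submitters' processing notes include STAR 2.6.0, featureCounts and DESeq2, with build mm10; no annotation or strand setting is given. The liver and spleen values deposited by the authors are signal, that is, reads per gene divided by a size factor of the library. Division gave whole reads back, within 0.05 reads, for 100% of values. In 3 liver and 1 spleen libraries 1 read is worth within 1.2% of 1, so their low values cannot show this. Log2 fold changes and adjusted p-values of their own comparisons were also deposited by the authors.

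Groups follow the sample titles. Genes averaging at least 10 over the 20 livers were tested with limma 3.58.1 (R 4.3.3, eBayes with trend) on log2(value + 1), a scale that understates changes of low genes, in 1 fit over 4 groups with 7 contrasts. Tests were two-sided and adjusted over 16155 genes (Benjamini-Hochberg); the median standard error between 2 groups was 0.17 (log2). The fit was tested on simulated reads. Alternatives were pseudocounts of 0.5 and 5, no minimum mean or 50, quantile normalisation, a replicate block, only the compared groups, leaving out each library, and edgeR 4.0.16 (quasi-likelihood, TMM) and DESeq2 1.42.0 on recovered reads.

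Named were the 9 genes, up to 4 called genes of each other complement list, and for each of the 9 the 2 genes most like it among those averaging at least 50; marker genes and Susd4 were added by their values. Members and lists were chosen with earlier results of these data known. Lengths and positions are from GENCODE M21, promoters from RefSeq. Spleen was described and not tested.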

Additional observations from a re-analysis of the deposited data

Results flagged for a closer look

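C6 in wild-type vehicle liver replicate 5 had 707 normalised reads, far above the 231 to 305 of the other 4 libraries of its group. This library stood apart by more than the 95% limit of Dixon's test. It was the only such case among 36 groups tested (9 genes in 4 groups). At that limit chance flags about 1 group in 20, a rate that 1 in 36 does not exceed. The same library had the highest C9 (5328), C8a (9819.5), C8b (6323) and Hc (10961) of all livers. Within its group it was also highest for C4a (3001) and C4b (20183), but not for C3 and C8g. Without it, the log2 fold change of C6 in knockout vehicle against wild-type vehicle livers was -0.84 (limma adjusted p = 0.175), against -1.11 with it.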

How the results depend on the processing

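Over both exposures, the count of genes called lower in knockout livers was 4 under every alternative and in all 20 fits that left out 1 library. With PCB-153 it was 4 under every alternative and 3 to 4 when 1 library was left out. With vehicle the count of 1 rests on C8b near the threshold: it was 3 with DESeq2, 0 to 1 when 1 library was left out, and 0 with no filter, a minimum mean of 50, quantile normalisation, the replicate block, edgeR or the compared groups only, where C8b had adjusted p of 0.0761, 0.0526, 0.06, 0.0569, 0.0719 and 0.055. DESeq2 called 1 gene (C9) for PCB-153 against vehicle in knockout and 1 over both genotypes, where limma called 0 (0 to 1 over both genotypes when 1 library was left out). The cause was not tested.

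Over all genes, DESeq2 called 275 against 98 in limma with vehicle, 380 against 234 with PCB-153, 1192 against 737 over both exposures, 63 against 0 for PCB-153 in knockout, 99 against 0 over both genotypes and 1 against 0 in wild type. A minimum mean of 50 gave 64 with vehicle, and no filter gave 1 in knockout. Leaving out 1 library gave 49 to 146 with vehicle, 124 to 334 with PCB-153, 467 to 1227 over both exposures, and for PCB-153 0 to 3 in knockout, 0 to 184 over both genotypes and 0 in wild type. Correlations of deviations between same-numbered libraries of 2 groups ran from -0.378 to 0.402. Between knockout vehicle and wild-type vehicle livers all were positive (0.039 to 0.268). Whether replicate numbers mark a shared batch or litter was not tested. The replicate block ended the vehicle call of C8b (limma adjusted p = 0.0569) and changed no other call among the 9 genes.

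Signs turned only for C3, C4a, C4b, Hc and C8g, none of them called. Under quantile normalisation, log2 fold changes turned to 0.0072 for C4a, 0.020 for C4b and 0.048 for C8g in knockout vehicle against wild-type vehicle, 0.0028 for C4b over both exposures, 0.036 for C3 for PCB-153 in wild type and 0.11 over both genotypes, and -0.035 for C4b in the interaction. When 1 library was left out, knockout vehicle against wild-type vehicle ranged from -0.13 to 0.037 for C4a, -0.14 to 0.0062 for C4b and -0.13 to 0.078 for C8g, and with PCB-153 from -0.057 to 0.030 for C4b. Over both exposures Hc ranged from -0.029 to 0.038. PCB-153 against vehicle in knockout ranged from -0.021 to 0.16 for C3, -0.12 to 0.029 for C4b, -0.023 to 0.093 for Hc and -0.014 to 0.080 for C8g, and over both genotypes from -0.091 to 0.029 for C3. The interaction ranged from -0.089 to 0.079 for C4a, -0.019 to 0.13 for C4b and -0.20 to 0.019 for C8g. At 15.23 to 28.65 M reads a library, C6 was counted in 67 to 565 reads, the fewest of the 9 genes.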
